A study of Mus musculus with 4 samples.

Results

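Prostaglandin synthesis and reception were followed by 10 genes through the cell types of mouse kidney glomeruli, the capillary tufts in which blood is filtered. The 10 genes are the cyclooxygenases Ptgs1 and Ptgs2, the terminal synthases Ptgis, Ptges and Ptgds, and the receptors Ptger1, Ptger2, Ptger3, Ptger4 and Ptgir. They were found by symbol among the 52636 gene IDs of the deposited count matrices, and each symbol matched 1 gene ID. The genes were selected on their measured UMI levels per library and cell type, with differences between young and aged libraries already known, so their levels and fold changes are given as a description and carry no p-value.

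The series has 2 libraries of young and 2 libraries of aged mouse glomeruli, and age is the 1 difference that the labels give between the groups. Both groups were prepared the same way: mice were perfused with magnetic beads, glomeruli were collected on a magnet and dissociated with enzymes, and 3' droplet libraries were made. Exact ages, sex, strain and how many mice went into a library are not given in the sources used here. No label says that the 2 libraries of a group came from separate mice, so the adjusted p-values measure the spread between these libraries, which may be technical.

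Prostaglandins are made from arachidonic acid that phospholipases release from membranes. A cyclooxygenase converts it to prostaglandin H, and a terminal synthase then makes the individual product: prostacyclin by Ptgis, prostaglandin E by Ptges, and prostaglandin D by Ptgds. The products act on receptors coupled to G proteins; Ptger2, Ptger4 and Ptgir raise cyclic AMP, Ptger1 acts through calcium, and Ptger3 lowers cyclic AMP. In the kidney these mediators are known for their control of glomerular blood flow, renin release and salt handling.

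The 4 matrices held 18457791 to 42046542 counts of unique molecular identifiers (UMIs, each standing for 1 captured transcript). After filters 28000 cells remained, and 21781 of them were placed in 11 classes by marker genes. The classes are podocyte-like, endothelial-like and so on, and are written as podocyte and endothelial. The 4 glomerular classes tested for age were podocytes (576 to 1767 cells per library), endothelial cells (1300 to 5751), mesangial cells (166 to 611) and parietal epithelial cells (34 to 72). Among these 4, the summed markers of each class were highest in that class. Young replicate 2 stood apart: 56.8% of its kept cells fell in clusters with markers of more than 1 class and were left out, against 0.686% to 1.67% in the other libraries, and its median cell had 1258 UMIs against 2715 to 3730. Between 9 and 31 cell barcodes were shared by any pair of libraries.

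The 2 cyclooxygenase genes lie on different chromosomes, and the 250 bases before their annotated starts differ in make-up. Ptgs2 (ENSMUSG00000032487) spans chr1:150100031-150108227 on the plus strand of GRCm38 and overlaps no other annotated gene. Ptgs1 (ENSMUSG00000047250) spans chr2:36230426-36252272, also on the plus strand, and overlaps Gm43621 on the other strand. The 250 bases before each annotated start are shown because Ptgs2 differed between age groups and Ptgs1 was detected in the same cell types. Both are from RefSeq (GRCm38.p6), 5′ to 3′ on the plus strand; Ptgs2 is at chr1:150099781-150100030 and Ptgs1 at chr2:36230176-36230425. Capitals mark matches to the motifs searched.

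Ptgs2: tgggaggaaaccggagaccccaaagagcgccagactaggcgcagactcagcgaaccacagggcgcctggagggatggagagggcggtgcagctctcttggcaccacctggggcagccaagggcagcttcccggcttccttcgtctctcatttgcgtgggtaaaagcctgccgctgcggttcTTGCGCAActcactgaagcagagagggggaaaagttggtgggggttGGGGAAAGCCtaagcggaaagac

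Ptgs1: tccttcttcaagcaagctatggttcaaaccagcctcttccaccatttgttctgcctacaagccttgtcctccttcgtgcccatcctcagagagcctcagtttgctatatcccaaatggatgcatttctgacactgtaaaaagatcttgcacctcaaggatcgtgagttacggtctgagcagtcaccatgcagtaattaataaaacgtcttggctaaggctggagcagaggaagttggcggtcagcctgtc

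The 6 motifs searched, on both strands, were TTGCNNAA (C/EBP factors), the NF-kB motif (GGG and CC with any 5 bases between), CACGTG (E-box), TGACG (core of the cyclic AMP response element), TGANTCA (AP-1) and TATAAA (a core promoter element). The Ptgs2 stretch held TTGCGCAA, which matched the C/EBP motif on both strands, 69 to 62 bases before the start, and GGGGAAAGCC, which matched the NF-kB motif, 23 to 14 bases before it. The Ptgs1 stretch held no match to any of the 6, and 1 to the NF-kB motif lay 28 to 37 bases after its start. Of 32851 promoter stretches of this length in the RefSeq table, 9.56% held the C/EBP motif and 45.8% the NF-kB motif. The shares for the other motifs were 6.02% for the E-box, 17.8% for the cyclic AMP core, 6.75% for AP-1 and 12.4% for TATAAA. In the 50 bases after the annotated Ptgs2 start, the E-box was matched at bases 17 to 22 and the cyclic AMP core, on the minus strand, at bases 14 to 18, so that these 2 overlap. The Ptgs2 stretch had 13 CG dinucleotides and 61.6% G or C, and the Ptgs1 stretch 5 and 48.0%. A match is a string of letters and does not show binding.

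The 10 genes divided the glomerular cell types between them. Ptgs2 and Ptger4 were highest in mesangial cells, Ptgs1 in endothelial and mesangial cells, Ptgis in parietal epithelial cells and in smooth muscle and renin cells, and Ptgds in parietal epithelial cells. Ptges and Ptger3 were near 0 in every glomerular class. Levels are UMIs of the gene per 1000000 UMIs of the class in that library, written UPM. They are not scaled by gene length, so levels are compared within a gene.

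**Figure D1:**
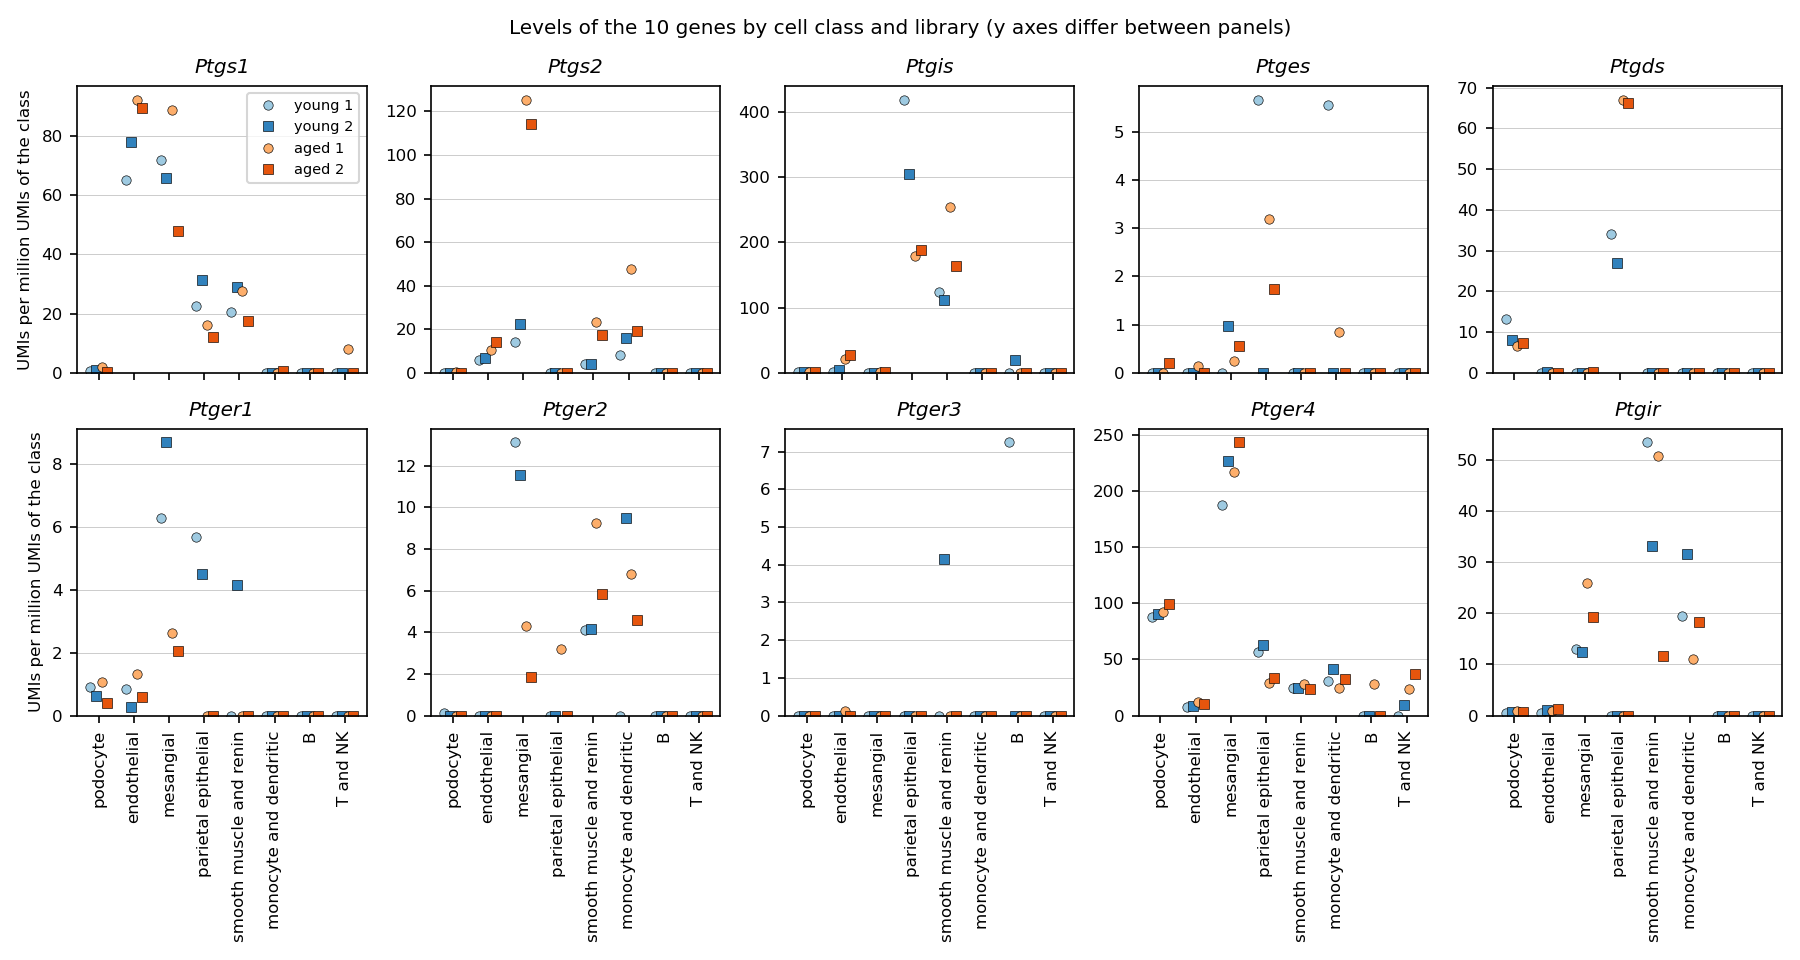
UPM (y axis, a separate scale for each gene) by cell class (x axis) for the 10 genes; each point is 1 library, with circles for replicate 1 and squares for replicate 2 of the young (blue) and aged (orange) groups. Classes with at least 20 cells in every library are shown. Ptgs2 in mesangial cells was 14.3 and 22.2 in young and 125 and 114 in aged libraries.

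Age was compared on UMIs summed per class and library with edgeR's quasi-likelihood test, and a gene was called at a Benjamini-Hochberg adjusted p under 0.05 over all genes tested in the class. Of the 10 genes, 2 passed the count filter in podocytes, 5 in endothelial cells, 6 in mesangial cells and 3 in parietal epithelial cells. In podocytes 0 of 2 were called by edgeR, 1 of them at an unadjusted p under 0.05, and 0 by DESeq2; of all genes 6.42% passed, 4.28% higher and 2.14% lower in aged libraries, and for 46.5% the age groups did not overlap. In endothelial cells 2 of 5 were called, both higher, against 5.62% of all genes (3.79% higher, 1.83% lower, and 49.0% with groups that did not overlap). In mesangial cells 2 of 6 were called, 1 higher and 1 lower, against 7.61% of all genes (4.91% higher, 2.7% lower, and 53.8% without overlap). In parietal epithelial cells 1 of 3 was called, lower, against 3.48% of all genes (1.85% higher, 1.63% lower, and 48.1% without overlap). Since the genes were chosen for such differences, nothing is read from these counts. Without young replicate 2 the counts were 1 in podocytes, 3 in endothelial cells, 1 in mesangial cells and 0 in parietal epithelial cells; without young replicate 1 they were 0, 2, 0 and 0. Over all genes, the mesangial fit called 809 of 10627, but 0 without young replicate 1, where 1485 had an unadjusted p under 0.05, and 11 without young replicate 2.

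Ptgs1, the cyclooxygenase usually described as constitutive, was found in endothelial and mesangial cells. Endothelial levels were 65.1 and 77.9 UPM in young replicates 1 and 2, and 92.2 and 89.2 in aged replicates 1 and 2. Each aged library exceeded each young one, and the fitted log2 fold change was 0.47 ± 0.14 (SE), which was not called. It was called without young replicate 2 (0.55). Per endothelial cluster the gene was spread widely: it stood at 90.9 and 115 in young and 123 and 121 in aged libraries in the cluster led by Sele and Il6, which encode an adhesion molecule and a cytokine. It was lowest in the cluster led by Esm1 and Igfbp3, at 12.3, 26.3, 23.8 and 11.3 in the order young 1, young 2, aged 1, aged 2.

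In mesangial cells, the contractile cells between the capillaries, Ptgs1 was 71.9 and 65.6 in young libraries, and 88.7 and 47.8 in aged ones. The young values lay between the 2 aged ones, and the log2 fold change was 0.10 ± 0.25 (SE). It was −0.45 without aged replicate 1 and 0.52, and called, without aged replicate 2, so each aged library pulled the value its own way. Summed endothelial markers stood at 11.7% to 13.3% of their endothelial level in young and 15.8% to 17.6% in the aged mesangial sums, and their part in the Ptgs1 values was not tested. In podocytes Ptgs1 had 5, 3, 11 and 2 UMIs in 1767, 576, 985 and 655 cells. Aged macrophages held 169 and 427 Ptgs1 UMIs, or 49.6 and 86.7 UPM, whereas the young libraries had 3 and 13 macrophages in all.

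Ptgs2, the inducible cyclooxygenase, had 1759 UMIs in named cells over all libraries, of which mesangial cells held 1185 (67.4%). Their share was 67.3% and 71.4% in the aged libraries but 39.7% and 39.0% in the young ones. In the young libraries endothelial cells, which were more numerous, held 54.0% and 42.4%. The mesangial sums held 25 UMIs in 259 cells of young replicate 1 and 23 in 166 cells of young replicate 2, against 527 in 611 cells of aged replicate 1 and 610 in 485 cells of aged replicate 2. In UPM these are 14.3 and 22.2 in young and 125 and 114 in aged libraries. The groups did not overlap, and the fitted log2 fold change was 2.89 ± 0.23 (SE), called. It was 2.55 and not called without young replicate 1; with any other library left out it was called. A single cell of aged replicate 2 held 58 of its UMIs, and the level there was 104 without that cell.

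The share of mesangial cells with at least 1 Ptgs2 UMI was 6.18% and 9.04% in young and 32.9% and 38.1% in aged libraries. Median depths of these cells were 4489 and 3776 UMIs in young and 4232 and 7032 in aged libraries, and aged replicate 2 was the deepest. With every cell thinned to 1000 UMIs, which left out 1 young and 2 aged cells per library, the shares were 0.775% and 3.03% in young and 9.36% and 7.04% in aged libraries. Podocytes, whose median depths were 4198 to 7682 UMIs, served as background: 0, 0, 1 and 0 of their cells had a Ptgs2 UMI. The 0 UMIs of young replicate 1 allow up to 0.387 UPM there. Cells with 5 or more Ptgs2 UMIs numbered 1 and 0 in young and 29 and 32 in aged libraries. In the aged libraries the tenth of mesangial cells with the most Ptgs2 held 65.1% and 61.5% of its UMIs.

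**Figure D2:**
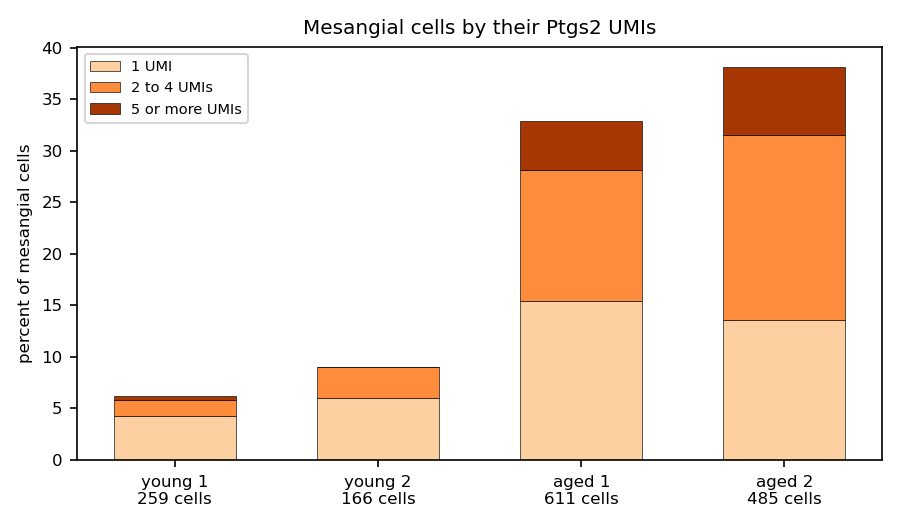
Percent of mesangial cells (y axis) with 1, 2 to 4, or 5 or more Ptgs2 UMIs in each library (x axis, with the number of cells). The bars reach 6.18% and 9.04% in young and 32.9% and 38.1% in aged libraries.

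The mesangial class was made of 2 clusters, and the age groups filled them unequally. The cluster led by Cxcl13, Serpine2 and Itga8 held 26 and 14 young and 589 and 471 aged cells. Young cells (233 and 152) filled the cluster led by Sfrp2 and Gucy1a3, which had 22 and 14 aged cells. The age contrast therefore set largely different clusters against each other. In the Cxcl13 cluster Ptgs2 stood at 52.1 and 82.8 UPM in young libraries, from 5 and 4 UMIs, and at 128 and 116 in aged ones. In the Sfrp2 cluster it stood at 12.1 and 19.2 in young libraries, and at 10.9 and 29.0 in aged ones, from 1 and 2 UMIs. Within the Sfrp2 cluster the groups thus overlapped, and within the Cxcl13 cluster the aged libraries were higher by less than the whole-class ratio. Clusters were made from all genes, so these values are a description.

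**Figure D3:**
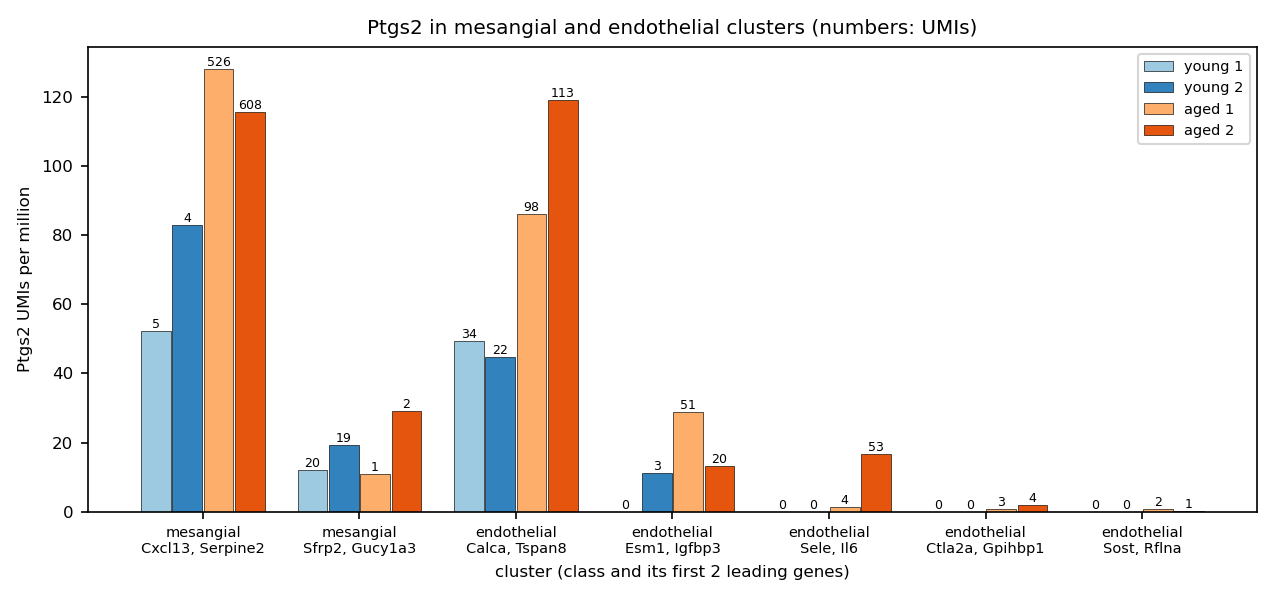
Ptgs2 UPM (y axis) in the 2 mesangial and 5 of the endothelial clusters (x axis, class and first 2 leading genes), 1 bar per library, with its UMIs written above it. In the Cxcl13 cluster the bars stand at 52.1, 82.8, 128 and 116, and in the Sfrp2 cluster at 12.1, 19.2, 10.9 and 29.0.

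Where mesangial cells of the aged libraries were split by Cdkn2a, a cell cycle inhibitor used as a senescence marker, Ptgs2 stood at 128 and 159 UPM in the 66 and 79 cells with a Cdkn2a UMI and at 125 and 98.2 in the 545 and 406 without. Cells with a Cdkn2a UMI were deeper, with medians of 8433 and 15849 UMIs against 3953 and 5826. Each young library had 1 mesangial cell with a Cdkn2a UMI, and neither had a Ptgs2 UMI.

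Another 3 gene lists were set beside Ptgs2 in the mesangial fit; they too were drawn up with earlier results known, and Crem and Nr4a1 stand in 2 of them. The first list, of 18 genes, held inducers and regulators of Ptgs2 together with the chemokine genes Ccl2, Cxcl1 and Cxcl2. Of these 18, 17 were tested, and 9 were called higher and 0 lower in aged libraries. Their median log2 fold change was 0.79, against −0.01 over all genes, of which 4.91% were called higher. The list also rose in the other classes tested, with 0 called lower. There 7 of 12 were called higher in podocytes (median 0.67), 6 of 17 in endothelial cells (0.47) and 4 of 12 in parietal epithelial cells (0.74). Podocytes held 1 Ptgs2 UMI and parietal epithelial cells 0. From each list the 4 genes with the smallest p in the mesangial fit are named, so their values are a description and carry no p-value. In mesangial cells Ccl2, a chemokine for monocytes, rose by 3.96 ± 0.29 (SE), and Nfkb1, a subunit of NF-kB, by 1.59 ± 0.17. Cxcl2, a chemokine for neutrophils, rose by 1.52 ± 0.17 and Tnfaip3, an inhibitor of NF-kB signalling, by 1.16 ± 0.17. Of 16 dissociation and immediate early genes, all were tested, 0 were called higher and 5 lower, with a median of −0.19. Egr1 fell by 1.29, Btg2 fell by 1.22, Jun fell by 0.99 and Atf3 fell by 0.80 on the log2 scale. The part of these lists in the Ptgs2 difference was not tested.

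Of 12 genes that respond to cyclic AMP or take part in its signalling, 10 were tested, 3 were called higher and 1 lower, with a median of 0.22. Crem rose from 162 and 141 CPM (counts per 1000000 after TMM scaling) to 552 and 218, and Pde4b, a phosphodiesterase that breaks down cyclic AMP, from 30.4 and 31.6 to 158 and 46.6. Nr4a3 rose from 85.2 and 98.7 to 418 and 111, while the related receptor gene Nr4a1 fell from 381 and 419 to 262 and 262. In the 3 that rose, aged replicate 1 was far above aged replicate 2, and without it Pde4b (0.60) and Nr4a3 (0.30) were not called. None of the 12 genes named from these lists was called when either young library was left out. Neutrophil markers summed to 0 and 2.89 UPM in young and 51.4 and 1.88 in the aged mesangial sums, so that aged replicate 1 stood apart there too; their part in these values was not tested.

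In endothelial cells Ptgs2 was rarer. The sums held 34 and 25 UMIs in young and 161 and 197 in aged libraries, or 5.68, 6.88, 10.6 and 14.3 UPM. The 2 aged values exceeded the 2 young ones, and the log2 fold change was 1.12 ± 0.25 (SE), called. One cell of aged replicate 2, in the Sele and Il6 cluster, held 50 of its 197 UMIs, and the level there was 10.6 without it. The gene was concentrated in the cluster led by Calca, Tspan8 and Edn1: 49.4 and 44.7 UPM in young and 85.9 and 119 in aged libraries. This cluster had 4 of 7 arteriolar markers and 4 of 5 glomerular capillary markers in at least 10% of its cells. Over all libraries its summed capillary markers, at 1717 UPM, were the lowest of the endothelial clusters. Its arteriolar markers, at 1204 UPM, were below only those of the Esm1 cluster (1586). In the cluster led by Esm1 and Igfbp3 it had 0 and 3 UMIs in young and 51 and 20 in aged libraries. The large capillary clusters led by Sost and by Ctla2a held 0 in both young libraries and 1 to 4 UMIs in aged ones. Summed mesangial markers stood at 0.387% and 0.624% of their mesangial level in young and 1.05% and 1.22% in the aged endothelial sums, and their part in the Ptgs2 difference was not tested. The log2 fold change was 2.54 and not called with no doublet removal, and 3.98 at the coarser clustering (resolution 0.5). In both settings a cluster with Calca, Tspan8 and Edn1 among its leading genes was mixed and left out (1385 and 1556 cells). The endothelial class was thus a different set of cells there, and the part of this in the values was not tested.

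Other classes held few Ptgs2 UMIs, though neutrophils had a high level. Monocytes and dendritic cells had 3 and 5 UMIs in young and 56 and 29 in aged libraries, or 8.32, 15.8, 47.7 and 18.96 UPM. Neutrophils, which were 0 and 5 cells in young and 61 and 22 in aged libraries, had 21 and 5 UMIs in aged ones (219 and 104 UPM). Smooth muscle and renin cells had 2 and 8 UMIs in all per age group. Parietal epithelial cells, B cells and T and NK cells had 0 UMIs in every library.

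Ptgis, prostacyclin synthase, had its 2 age differences in opposite directions. It spans chr2:167191805-167240604 on the minus strand, with 1110018N20Rik and Gm14291 on the other strand. Endothelial sums held 4 and 16 UMIs in young and 314 and 375 in aged libraries, which are 0.668 and 4.40 UPM against 20.7 and 27.1. The groups did not overlap, and the log2 fold change was 3.60 ± 0.38 (SE), called with every library left out in turn. It was 2.62 without young replicate 1 and 5.21 without young replicate 2, so the 2 young libraries set its size. The share of endothelial cells with a UMI was 0.172% and 1.23% in young and 4.36% and 7.50% in aged libraries, at median depths of 2300, 2594, 2317 and 3139 UMIs. Thinned to 1000 UMIs the shares were 0%, 0.436%, 2.06% and 2.03%. In mesangial cells, which are deeper, 0 young and 0.327% and 1.03% of aged cells had one.

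The aged libraries were higher in each of the larger endothelial clusters, though the cluster led by Esm1 rests on few UMIs. The Sele and Il6 cluster was highest among the 5 largest, with 0 and 17.4 UPM in young and 47.6 and 51.3 in aged libraries. The Sost and Rflna cluster had 0.947 and 3.97 in young and 20.7 and 25.2 in aged libraries. The Ctla2a and Gpihbp1 cluster had 0 and 1.23 against 11.3 and 18.7. In the Esm1 and Igfbp3 cluster the young libraries had 0 UMIs and the aged ones 2 each. The Sele and Il6 cluster itself made up 3.66% and 5.15% of young and 13.8% and 18.0% of aged endothelial cells, and all 5 genes on the list of endothelial activation markers were called higher in the aged endothelial sums. Summed markers of parietal epithelial cells, where Ptgis is higher, stood at 0.920% and 1.00% of their level in their own class in young and 1.41% and 2.71% in the aged endothelial sums; those of smooth muscle and renin cells stood at 0.0735% to 0.104% in all 4. The part of either in the Ptgis difference was not tested.

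**Figure D4:**
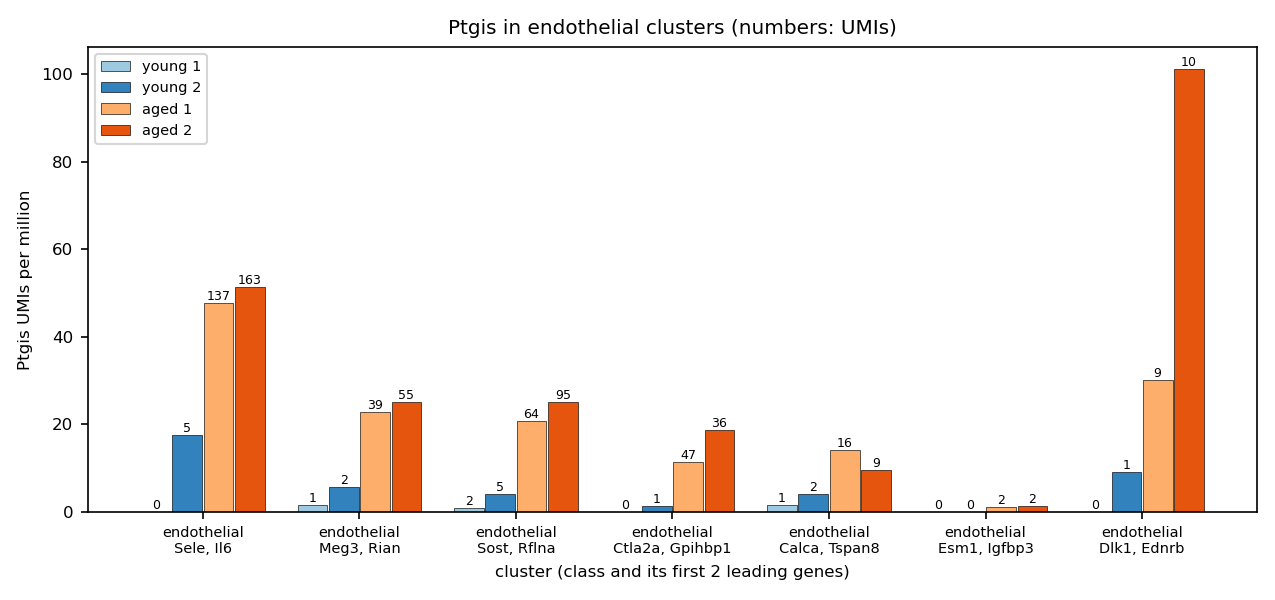
Ptgis UPM (y axis) in 7 endothelial clusters (x axis, first 2 leading genes), 1 bar per library, with its UMIs written above it. In the Sele and Il6 cluster the bars stand at 0, 17.4, 47.6 and 51.3; the last cluster, led by Dlk1 and Ednrb, rests on 154 cells.

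Parietal epithelial cells, which line the capsule around the tuft, had the highest Ptgis level of the glomerular classes: 419 and 306 UPM in young and 179 and 188 in aged libraries, from 74, 68, 56 and 108 UMIs in 34, 72, 52 and 62 cells. Both aged libraries lay below both young ones, and the log2 fold change was −0.94 ± 0.23 (SE), called. It was not called without young replicate 1 (−0.66), young replicate 2 (−1.16) or aged replicate 1 (−0.86). Over subclusters of the class, Ptgis ranged from 42.5 UPM in the one led by Msmp to 496 in the one led by Igfbp2 and Cst12. The age groups filled these subclusters unequally, as shown by splitting the 6 of them, after their values were seen, by their first leading gene. The 3 led by Igfbp2 or Mgp held 20 of 34 and 59 of 72 young but 15 of 52 and 28 of 62 aged cells, and the 3 led by Osr2 or Msmp held the rest. In the Igfbp2 and Mgp subclusters Ptgis stood at 488 and 381 UPM in young cells and 340 and 376 in aged ones. In the Osr2 and Msmp subclusters it was lower, at 356 and 224 in young cells and 127 and 96.2 in aged ones. The aged values were thus below the young ones within both sets, narrowly so in the first, and the part of the unequal filling in the class difference was not tested. Podocyte markers stood at 7.75% and 12.2% of their podocyte level in young and 4.01% and 6.06% in the aged parietal sums, and smooth muscle and renin markers at 9.79% and 9.98% against 10.7% and 28.6%. Dissociation genes were called lower in 8 of 16 cases and higher in 0. The part of these in the Ptgis difference was not tested. Smooth muscle and renin cells held 30, 27, 55 and 28 Ptgis UMIs in 68, 73, 61 and 38 cells, or 123 and 112 UPM in young and 254 and 163 in aged libraries; this class was not tested for age. Podocytes held 14, 2, 9 and 8 UMIs, at most 1.80 UPM.

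Ptgds, which makes prostaglandin D and also carries small lipids as a secreted protein, was found in podocytes and parietal epithelial cells. Podocytes held 103 and 26 UMIs in young and 37 and 36 in aged libraries, or 13.3, 8.07, 6.59 and 7.29 UPM. The aged values were below the young ones, with a log2 fold change of −0.67 ± 0.27 (SE) that was not called; it was −0.92 and called without young replicate 2. A small podocyte cluster led by Ptgds, of 25 cells, held 17 cells and 20 UMIs of young replicate 1. Parietal epithelial cells went the other way, at 34.0 and 27.0 UPM in young and 67.0 and 66.3 in aged libraries, with a log2 fold change of 1.16 ± 0.40 (SE), not called. That rests on 6, 6, 21 and 38 UMIs, and 58 of these 71 lay in the subclusters led by Osr2 or Msmp, which hold 14 and 13 young against 37 and 34 aged cells. Within those, Ptgds stood at 43.2 and 28.0 in young cells and 71.8 and 88.4 in aged ones; within the Igfbp2 and Mgp subclusters it stood at 23.8 and 26.0 against 52.4 and 21.2, which overlap. Endothelial and mesangial cells held 1 Ptgds UMI each over all 4 libraries.

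Ptges, the inducible prostaglandin E synthase, was a transcript of the few tubule cells that came with the glomeruli. Of 116 UMIs in named cells, 100 lay in a cluster of 34 tubule cells led by the water channel gene Aqp2. Mesangial sums held 0 and 1 UMIs in young and 1 and 3 in aged libraries, and podocyte and endothelial sums held 3 in all. It did not pass the count filter in any glomerular class. Gm13400 overlaps it on the same strand, and how reads in the overlap were counted is not given in the sources used here.

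Ptger4, the prostaglandin E receptor EP4, was the receptor with the most UMIs: 5486 in named cells, of which 50.5% lay in mesangial cells and 36.1% in podocytes. These shares depend on how many cells of each class a library held. In the young libraries mesangial cells held 30.1% and 39.6% and podocytes 62.8% and 48.8%. In the aged ones mesangial cells held 53.1% and 62.1% and podocytes 30.2% and 23.5%. Mesangial levels were 187 and 227 UPM in young and 217 and 243 in aged libraries, which overlap, and the log2 fold change was 0.27 ± 0.16 (SE), not called. The level was alike in the 2 mesangial clusters where cells were many: 191 and 225 in the young cells of the Sfrp2 cluster, and 217 and 241 in the aged cells of the Cxcl13 cluster. Ptger4 and Ptgs2 were often counted in the same mesangial cells. In the aged libraries 73.1% and 81.6% of the cells with a Ptgs2 UMI had a Ptger4 UMI, against 47.8% and 61.3% of the other cells, but the former were deeper, with medians of 8905 and 14939 UMIs against 3229 and 4537.

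Podocytes, the epithelial cells of the filter, had Ptger4 at 88.1 and 90.1 UPM in young and 92.3 and 99.2 in aged libraries. The aged libraries lay slightly above the young ones, and the log2 fold change was 0.16 ± 0.13 (SE), not called. The share of podocytes with a UMI was 27.6%, 32.3%, 35.0% and 45.3%, and with every cell thinned to 1000 UMIs it was 7.32%, 8.02%, 8.23% and 7.50%. The rising unthinned share thus went with the median depth of 4198, 5819, 5827 and 7682 UMIs. Endothelial levels were 7.35, 8.26, 12.01 and 10.3, with both aged libraries higher and a log2 fold change of 0.65 ± 0.22 (SE), not called. Podocyte markers stood at 3.34% to 5.30% of their level in their own class in the endothelial sums, without being higher in aged ones. Markers of mesangial cells, where Ptger4 is highest, stood there at 0.387% and 0.624% in young and 1.05% and 1.22% in aged libraries. The part of either in the endothelial Ptger4 values was not tested. In parietal epithelial cells Ptger4 was 56.6 and 62.9 in young and 28.7 and 33.1 in aged libraries, with a log2 fold change of −0.90 ± 0.39 (SE), not called. Within the Osr2 and Msmp subclusters the age groups overlapped, at 86.4 and 37.4 in young cells against 33.8 and 39.0 in aged ones. Within the Igfbp2 and Mgp subclusters both aged libraries lay below both young ones, at 23.8 and 86.6 against 13.1 and 21.2. Those values rest on 2 and 10 UMIs in young and 1 and 4 in aged libraries. Ttc33 and Gm15937 overlap Ptger4 on the other strand.

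Ptger2 and Ptger1, the receptors EP2 and EP1, were low. Mesangial cells held most of the Ptger2 UMIs of the glomerular classes, whereas Ptger1 also had 5, 1, 20 and 8 UMIs in endothelial cells. Ptger2 had 23 and 12 UMIs in young and 18 and 10 in the aged mesangial sums, which are 13.1 and 11.6 UPM against 4.28 and 1.88. Both aged libraries lay below both young ones, and the log2 fold change was −1.94 ± 0.46 (SE), called. It was not called without young replicate 1 (−1.82) or young replicate 2 (−2.01). By cluster it stood at 12.7 and 11.1 in the young cells of the Sfrp2 cluster and at 4.38 and 1.90 in the aged cells of the Cxcl13 cluster. The few young cells of the Cxcl13 cluster had 2 and 1 UMIs (20.8 and 20.7 UPM), and the few aged cells of the Sfrp2 cluster had 0. Ptger1 had 11, 9, 11 and 11 UMIs, or 6.28 and 8.68 UPM in young and 2.62 and 2.06 in aged libraries. Its log2 fold change was −1.52 ± 0.48 (SE), not called. Endothelial cells held 0 Ptger2 UMIs in every library, and macrophages of the aged libraries held 43.

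Ptgir, the prostacyclin receptor, was highest in smooth muscle and renin cells, at 53.5, 33.1, 50.9 and 11.7 UPM from 13, 8, 11 and 2 UMIs, with no order between the age groups. In mesangial cells it was 13.1 and 12.5 in young and 25.9 and 19.3 in aged libraries, from 23, 13, 109 and 103 UMIs. Each aged library exceeded each young one, and the log2 fold change was 0.92 ± 0.29 (SE), not called; it was 1.17 and called without aged replicate 2. Endothelial cells, in which Ptgis was higher in aged libraries, held 3, 4, 14 and 18 Ptgir UMIs, at most 1.30 UPM. Monocytes and dendritic cells held 58 UMIs, at 11.1 to 31.6 UPM.

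Ptger3, the receptor EP3, had 17 UMIs in named cells, of which 12 lay in tubule cells. Podocyte, mesangial and parietal epithelial sums held 0 in every library. In young replicate 1, 0 UMIs allow up to 0.387 UPM in podocytes and 1.71 in mesangial cells. It passed the filter in no glomerular class, so that together with Ptges 2 of the 10 genes were not tested anywhere.

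**Figure D5:**
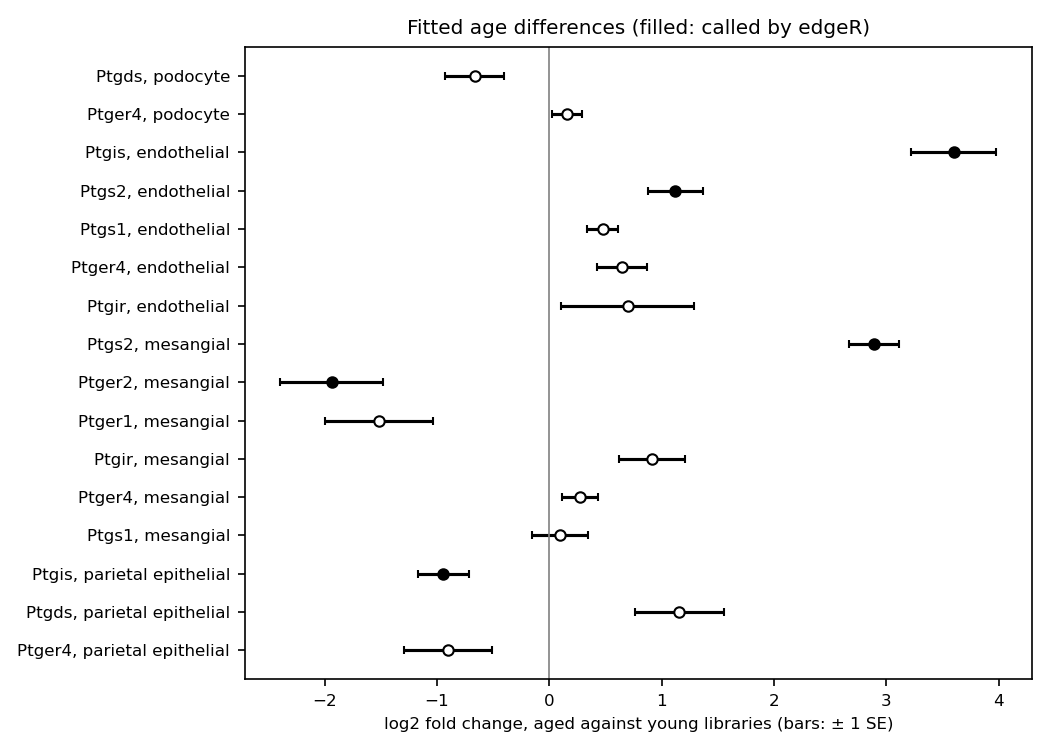
Log2 fold change of aged against young libraries (x axis, bars ± 1 SE) for the 16 gene and class pairs that passed the count filter (y axis). Filled points were called by edgeR; Ptgis in endothelial cells stands at 3.60 and Ptger2 in mesangial cells at −1.94.

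Other genes of the eicosanoid pathway, a list of 37 of which 36 were in the matrices, were looked up in the same fits. In podocytes 0 of 14 tested were called and in parietal epithelial cells 0 of 6, by edgeR and by DESeq2, and an unadjusted p under 0.05 was reached by 0. Of all genes, edgeR called 6.42% and 3.48% in these 2 classes. In endothelial cells 1 of 21 was called higher and 1 lower, against 3.79% and 1.83% of all genes. Their median log2 fold change was −0.10 against −0.01 over all genes. In mesangial cells 2 of 15 were called higher and 0 lower, against 4.91% and 2.7% of all genes, with a median of −0.01 against −0.01. Nothing is read from counts this small.

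Tbxa2r, the thromboxane receptor, fell in endothelial cells from 169 and 138 UPM in the young to 81.3 and 77.3 in aged libraries. The fall on the log2 scale was −0.84 ± 0.15 (SE), with an edgeR adjusted p of 0.0026, and it was called with each library left out. In mesangial cells it was 38.2, 28.0, 17.8 and 35.5, not called. Hpgd, the dehydrogenase that starts the breakdown of prostaglandins, rose in endothelial cells by 3.27 ± 0.69 (SE; edgeR adjusted p = 0.0089). It had 1 and 1 UMIs in young and 33 and 24 in the aged sums, a ratio of 9.46 with an exact 95% interval of 2.50 to 80.0 for counting error only. It was not called without young replicate 1 (2.96) or aged replicate 1 (3.08).

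In mesangial cells Hpgd rose from 1 and 1 to 20 and 28 UMIs (log2 fold change 2.84 ± 0.73 SE; edgeR adjusted p = 0.025; ratio 7.02, interval 1.84 to 59.6). Alox5ap, which helps to start leukotriene synthesis, rose there from 6.28 and 13.5 to 27.1 and 21.9 UPM (1.53 ± 0.34 SE; edgeR adjusted p = 0.011). Neither was called in mesangial cells without young replicate 1 (2.45 and 0.97) or young replicate 2 (3.17 and 2.07). Both are much higher in macrophages and in monocytes and dendritic cells. Aged macrophages had Hpgd at 264 and 389 UPM, and monocytes and dendritic cells had Alox5ap at 679 to 1135. Macrophage markers stood at 0.0182% and 0.0620% of their level in their own class in young and 0.0974% and 0.124% in the aged endothelial sums, and 3 of their 5 tested genes were called higher there; monocyte and dendritic markers stood at 2.08%, 2.51%, 4.03% and 7.22%. In the mesangial sums macrophage markers were at 3.59% and 5.26% in young and 2.63% and 1.99% in aged libraries, and monocyte and dendritic markers at 0.143% and 0.150% against 0.307% and 0.442%. Of the 8 macrophage markers, 6 and 4 were at 0 in the young mesangial sums and 2 and 1 in the aged ones; C1qa and C1qc were at 0 in both young sums and in neither aged one. The part of such RNA in the Hpgd and Alox5ap values was not tested.

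The steps around the cyclooxygenases did not pass the test in mesangial cells. Pla2g4a, the phospholipase that frees arachidonic acid, was 195 and 220 UPM in young and 167 and 246 in aged libraries. Ptges3 and Ptges2, other prostaglandin E synthases, were 301, 347, 330 and 379, and 10.3, 4.82, 8.33 and 10.1. Slco2a1, which carries prostaglandins into cells, was 364 and 407 in young and 325 and 196 in aged libraries. Pla2g4a overlapped between the age groups, and Slco2a1 was lower in both aged libraries without being called (log2 fold change −0.44 ± 0.21 SE).

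The genes whose pattern was most like that of a member were found over 32 class and library sums of 8 classes, which share libraries and depth, by Pearson's r of log2(CPM + 1) among 8377 genes. For Ptgs1 they were Tgtp2 (r = 0.96), Lmcd1 (0.95) and Sgce (0.94). For Ptgs2 they were Ifi211 (0.89), Picalm (0.87) and the chemokine gene Cxcl2 (0.87). For Ptgis they were Synm (0.93), Grb14 (0.91) and Bex4 (0.90), and for Ptger4 Hs2st1 (0.85), Nptn (0.84) and Dse (0.84). The other members had a mean CPM under 10 and were not compared.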

How the data were processed

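The deposited matrices hold raw UMI counts per gene and cell barcode, 1 matrix per library, and the deposited gene and barcode lists (other, not numeric) name their rows and columns. Per the file headers and the submitters' processing notes the authors used Cell Ranger 6.0.1, whereas the labels' protocol names 3.1.0; which version made the counts is not settled. The notes also name Partek, with no role.

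Barcodes with at least 500 genes and at most 20% mitochondrial UMIs were kept. Doublets were scored with Scrublet in scanpy 1.11.5; its automatic threshold marked 133, 0, 1 and 0 barcodes, so the highest scores were removed at 0.8% per 1000 barcodes (1876 in all). Counts were scaled to 10000 per cell, and clusters were made from 2000 variable genes, 30 components and 15 neighbours with leidenalg 0.10.2 (resolution 1). Clusters were named from summed markers, with thresholds set after the data were seen; mixed clusters and mixed single cells were left out. Sums of counts over the cells of a class in a library (20 cells or more) were tested with edgeR 4.0.16 (TMM, default filter, quasi-likelihood F test) in R 4.3.3, with DESeq2 1.42.0 as an alternative. SE was taken as the size of the log2 fold change over the root of the F statistic. The test was tried on simulated counts first. Thinning was to 1000 UMIs, the floor is 3 counts and intervals are exact at 95%.

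The 10 genes and all lists were chosen with earlier results of these data known. All 10 genes are named; of the pathway list the called genes are named, of the other lists the 4 with the smallest p in the mesangial fit, and of the likeness search the 3 with the highest r. Pla2g4a, Ptges2, Ptges3 and Slco2a1 were named after their values were seen. GENCODE vM21 (GRCm38) held 52489 of the 52636 IDs.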

Additional observations from a re-analysis of the deposited data

Results flagged for a closer look

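For 3 genes, Ptgis, Ptgds and Ptger4, the 2 aged libraries were above the 2 young ones in 1 class and below them in another, on the TMM-scaled CPM of the fits. The difference between classes was not tested. Ptgis had a log2 fold change of 3.60 in endothelial and −0.94 in parietal epithelial cells, 4.54 apart. Ptgds had 1.16 in parietal epithelial cells and −0.67 in podocytes, 1.82 apart. Ptger4 fell short of a call in every class, with −0.90 in parietal epithelial cells against 0.16 in podocytes (1.06 apart), 0.65 in endothelial cells (1.55 apart) and 0.27 in mesangial cells (1.17 apart), where the levels without TMM scaling overlapped. All 5 pairs involve the parietal epithelial class, the smallest of those tested, whose young cells lay mostly in the subclusters led by Igfbp2 or Mgp (20 of 34 and 59 of 72) and aged cells mostly in those led by Osr2 or Msmp (37 of 52 and 34 of 62). No group of libraries was large enough to be searched for outlying samples.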

How the results depend on the processing

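No label says whether same-numbered libraries were prepared together. Deviations of same-numbered libraries from their group means correlated at 0.0313 for podocytes, 0.0984 for endothelial cells, 0.0494 for the mesangial class and 0.0129 for the parietal class. With 4 libraries these values cannot decide whether the replicate numbers pair them. With the replicate number as a block, 4 of the 10 genes were called in mesangial cells against 2, and over all genes 1575 against 809 there and 316 against 164 in parietal epithelial cells. DESeq2 called 1 of the 10 genes and 0 pathway genes in mesangial cells, 0 of the 10 in parietal epithelial cells and 1 pathway gene in endothelial cells; over all genes it called 275 in podocytes against 697, 381 in mesangial cells and 56 in parietal epithelial cells. With mixed cells kept, 5 of the 10 genes and 6 pathway genes were called in mesangial cells, with 13.1% of all genes called against 7.61%. In parietal epithelial cells 0 were called with no doublet removal (all genes, 3.90%) or at resolution 0.5 (3.79%), and in podocytes 1 with a mitochondrial share of at most 10% (6.84%). Leaving out 1 library gave 0 to 1 of the 10 genes in podocytes, 2 to 3 in endothelial cells, 0 to 4 in mesangial cells and 0 to 1 in parietal epithelial cells, and 1 to 2 pathway genes in endothelial and 0 to 2 in mesangial cells. Over all genes the same fits called 2.75% to 8.03%, 4.34% to 7.02%, 0% to 16.7% and 0.468% to 4.53% in these classes. Ptgs1 in mesangial cells was −0.45 without aged replicate 1, a reversed sign, and 0.52 without aged replicate 2. The difference in the share of cells with a UMI, aged minus young, was 27.9 percentage points for Ptgs2 in mesangial cells and 6.30 after thinning, and 10.2 for Ptger4 in podocytes and 0.199 after thinning. Except for thinning, which lowers every share, the cause of these changes was not tested. Mesangial cells could not be fitted at resolution 0.5, where the young mesangial cells fell in a mixed cluster. Mesangial sums rest on 166 to 611 cells and parietal epithelial sums on 34 to 72.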

Other observations

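Cells left out of the classes also held Ptgs2 and Ptger4. A cluster of 1257 cells led by Sfrp2 and Ptn, genes that also lead the mesangial clusters, carried markers of more than 1 class. It had 1171 analysed cells from young replicate 2, with 13 Ptgs2 UMIs (8.56 UPM, that is UMIs per 1000000 UMIs), 173 Ptger4 UMIs (114 UPM) and 17 Ptger2 UMIs (11.2 UPM). A mixed cluster of 73 cells, all from aged replicate 2 and led by Serpina3g and Serpine2, had 38 Ptgs2 UMIs (43.3 UPM), 109 Ptger4 UMIs (124 UPM) and 15 Ptgis UMIs (17.1 UPM). In 30 cells of aged replicate 1 in a cluster with low marker levels led by Abca13 and Slc12a3, the latter the salt transporter of the distal tubule, Ptges had 26 UMIs (64.2 UPM).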
